A study of Rattus norvegicus with 48 samples.

Results

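The change of the rat lung over 4 weeks in filtered air was examined by comparing 6 animals whose lungs were taken 28 days after a single session in an exposure chamber with 6 animals taken 1 day after it. These 12 libraries of the 48 in the series were chosen by their labels alone: filtered air, the single schedule, 28 or 1 days. All 12 came from male Sprague-Dawley rats of 200 to 250 g at the outset. They breathed filtered air (0 ppm of oil vapor) in whole-body chambers as the controls of a single 6 h exposure to oil vapor at 300 ppm. The labels used here give no age, and animals of this weight are still growing. The animals' age, the time since the chamber and the day of tissue collection cannot be told apart in this comparison. The other groups were 6 oil vapor animals at each time on the same schedule, and the matching air and oil vapor animals of a repeated schedule of 16 exposure days, 4 days per week for 4 weeks.

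A growing lung lays down a scaffold of collagen, elastic fibres and basement membrane around its airspaces and vessels. Fibroblasts and other mesenchymal cells make the collagens and elastin as soluble precursors, which enzymes fold, trim and crosslink outside the cell, where elastin then turns over very slowly. Cell division, matrix synthesis and the expression of imprinted growth genes are known to decline as growth slows.

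Each library was sequenced from total RNA of a piece of lung from 1 animal, depleted of ribosomal RNA, and holds read counts per gene. The 6 libraries at 1 day held 4.96 ± 0.401 M (1000000) counts (mean ± SD) and the 6 at 28 days 4.62 ± 0.944 M, so that 3 counts corresponded to 0.489 to 0.833 CPM (a gene's counts per 1000000 counts of its library). The lung's own markers were high in every library: the surfactant and other alveolar type 2 genes summed to between 23000 and 30290 CPM. Some libraries stood apart in transcripts of other tissues, shown in the plot of summed levels. The 11 ventricular heart muscle genes of the list, 9 of them tested, summed to 47.7 to 732 CPM at 1 day, with animals 2 and 4 highest (732 and 636 CPM). At 28 days they summed to 62.9 to 1197 CPM, with animals 19 and 20 highest. Atrial heart muscle genes summed to 273 to 1934 CPM at 1 day, again with animals 2 and 4 highest (1790 and 1934 CPM). At 28 days the atrial sums were 310 to 2436 CPM, with animals 19 and 20 highest. The 20 liver genes of the list, 10 of them tested, summed to 200 to 259 CPM at 1 day and to 240 to 300 CPM at 28 days, except for 1289 CPM in animal 17. Erythroid genes reached 10090 CPM in animal 23, against 2558 to 7275 CPM in the others. Results are therefore also given without animals 17, 19 and 20 where that ends the call of a named gene or moves a list's count. Animals 2, 4 and 23 were kept. This fit keeps 3 animals at 28 days and has less power, so that a call can end though the change hardly moves. Medians went from -0.68 to -0.62 in the cell division list, with 18 and 4 calls. In the immediate early list they went from 0.50 to 0.185, with 7 and 0 calls. Whether a lost call came from other tissues was not tested.

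**Figure D1:**
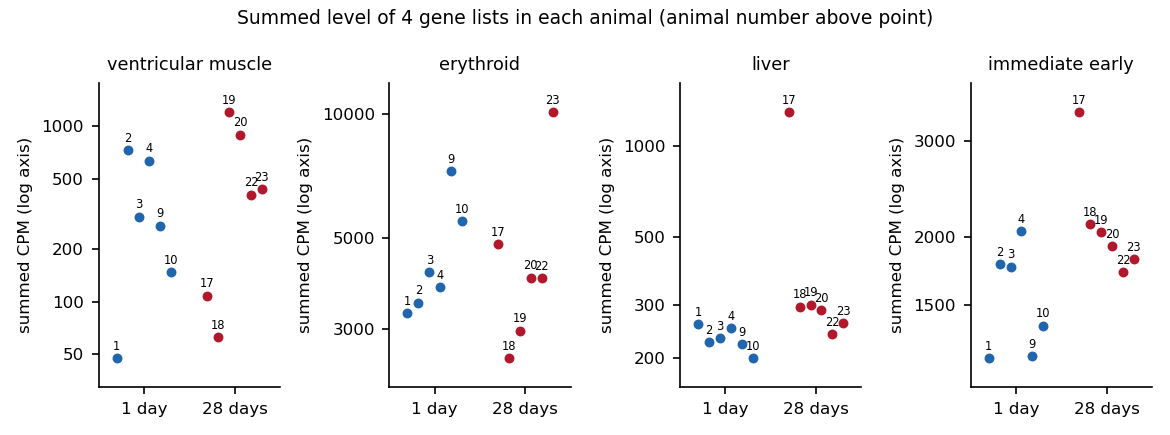
Summed CPM (log axis) of ventricular muscle, erythroid, liver and immediate early genes in each of the 12 air animals, 1 point per animal with its number, at 1 day (blue) and 28 days (red). Animal 17 stands above the other 28-day animals for liver (1289 CPM) and immediate early genes (3391 CPM), animal 23 for erythroid genes (10090 CPM), and animals 19 and 20 are highest for ventricular genes.

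At 28 days many genes of the matrix and of cell division were lower than at 1 day, while a smaller and more mixed set of genes was higher. Of 14820 genes tested, 481 (3.25%) passed an adjusted p below 0.05 in the quasi-likelihood test of edgeR, adjusted by Benjamini and Hochberg's method, which is the test behind every adjusted p given here. Lower at 28 days were 332 genes (2.24%) and higher were 149 (1.01%), although the changes of all genes were balanced, with a median of 0.00297 on the log2 scale, 7533 above 0 and 7287 below. The levels of the 6 animals at 28 days lay wholly below those of the 6 at 1 day for 281 of all genes tested (1.9%), called or not, and wholly above for 71 (0.479%). Of those called, 39 were at least 2-fold lower (0.263%) and 8 at least 2-fold higher (0.054%), so most changes were small. Since whole tissue was measured, fewer cells of a type and less RNA per cell cannot be told apart. Leaving out animals 17, 19 and 20, which keeps 3 animals at 28 days, left 125 genes, 98 lower and 27 higher, of which 109 were among the 481. Leaving out 1 animal at a time gave 315 (without animal 10) to 516 genes. When a change of more than 1.5-fold was required, 6 genes passed, all lower: Adamts17, Col3a1, Col1a1, Eln, Cyp1a1 and Fam64a.

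**Figure D2:**
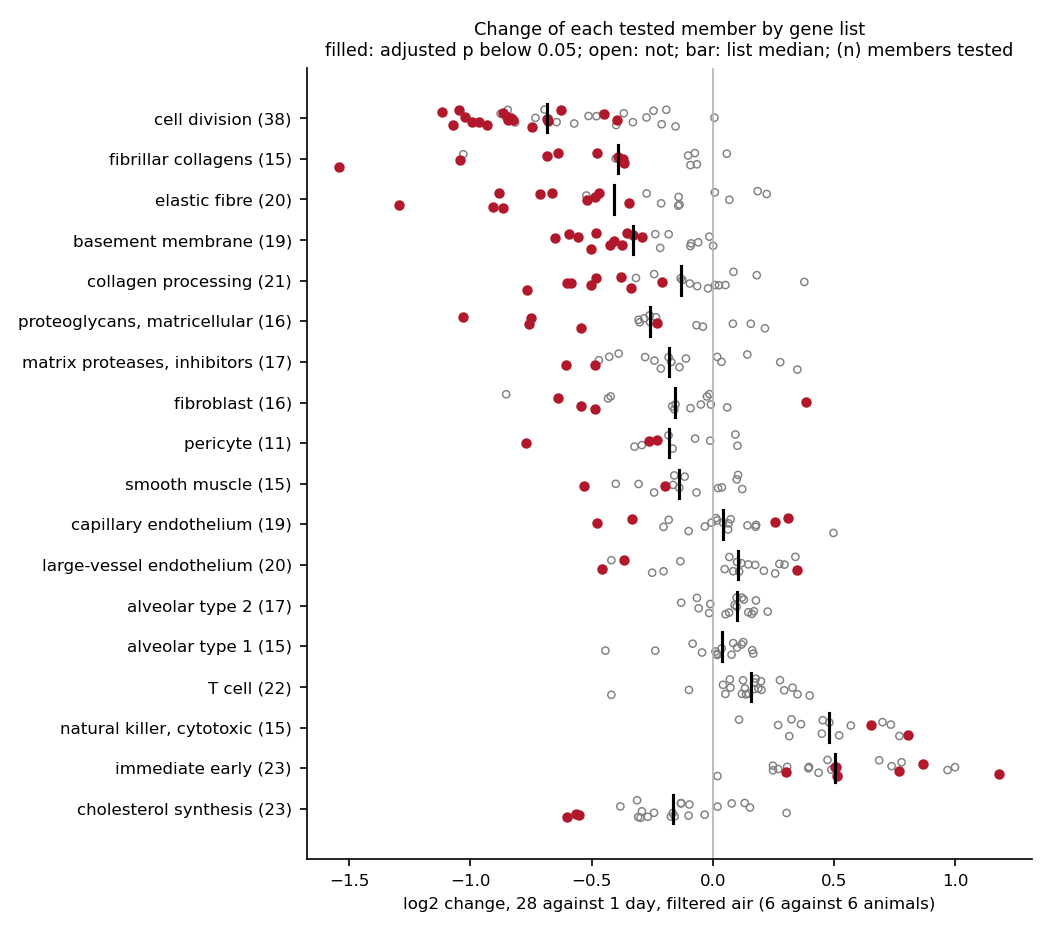
Log2 change at 28 against 1 day in filtered air (x axis) of every tested member of 18 gene lists (y axis, number tested in brackets), with filled points for an adjusted p below 0.05, open points for others and a bar at the list's median. Filled points lie below 0 in the cell division and matrix lists and above 0 in the immediate early and natural killer lists, and the alveolar and T cell lists have none.

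Genes of elastic fibres fell without exception among those that passed. Elastic fibres consist of an elastin core on a scaffold of fibrillin microfibrils and give the lung its recoil. In this list 20 of 22 members could be tested, 10 fell (50%, against 2.24% of all genes) and none rose, with a median of -0.41. In Eln, which encodes elastin, at 1 day the lowest, median and highest levels were 931, 1192 and 1489 CPM, and at 28 days 384, 429.8 and 699 CPM. The highest animal at 28 days was below the lowest at 1 day, and Eln fell by 1.29 ± 0.14 on the log2 scale (adjusted p = 2.72e-06). In Fbn1, the gene of the microfibril protein fibrillin-1, at 1 day the lowest, median and highest levels were 728, 889.6 and 952 CPM, and at 28 days 478, 516 and 609.9 CPM. Here too the groups did not overlap, and Fbn1 fell by 0.71 ± 0.07 on the log2 scale (adjusted p = 2.72e-06). Loxl2, a lysyl oxidase that crosslinks collagen and elastin, fell by 0.91 ± 0.10 on the log2 scale (adjusted p = 2.72e-06). Fbln5, a fibulin needed to assemble elastin on microfibrils, fell by 0.88 ± 0.12 on the log2 scale (adjusted p = 1.04e-04). The 10 members that did not pass lay between -0.52 and 0.22. Without animals 17, 19 and 20 the list had 6 calls and a median of -0.32. Mfap4, a microfibril-associated protein, was among the untested members: it had 0 or 1 counts in each of the 12 libraries, and was named after its counts were seen.

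The fibrillar collagens form the tensile network of the interstitium. Their list here also holds collagens of other kinds, such as type VI. Of its 17 genes 15 could be tested, 8 fell (53.3%) and none rose, with a median of -0.39. In Col1a1, a chain of type I collagen, at 1 day the lowest, median and highest levels were 381, 458 and 713 CPM, and at 28 days 98.8, 180.4 and 203 CPM. All 6 animals at 28 days lay below all 6 at 1 day, animal 20 far below the rest, and Col1a1 fell by 1.54 ± 0.16 on the log2 scale (adjusted p = 2.72e-06). In Col3a1, the chain of type III collagen, at 1 day the lowest, median and highest levels were 3749, 4866 and 5195 CPM, and at 28 days 1666, 2311 and 2725 CPM. Col3a1 fell by 1.04 ± 0.10 on the log2 scale (adjusted p = 1.65e-06), again without overlap. Col5a1, of the type V collagen that starts fibril assembly, fell by 0.69 ± 0.11 on the log2 scale (adjusted p = 6.97e-04). Col6a3, of the type VI collagen of microfibrils beside cells, fell by 0.48 ± 0.08 on the log2 scale (adjusted p = 8.00e-04). Col1a2, which encodes the partner chain of Col1a1 in type I collagen, was at 0 in 11 of the 12 libraries and at 2 counts in the other, and could not be tested. It was named after its counts were seen, it reached at most 2 counts in any of the 48 libraries, and the cause was not tested. With animals 17, 19 and 20 left out, 4 members passed and the median was -0.32, and Col6a3 had an adjusted p of 0.0548.

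**Figure D3:**
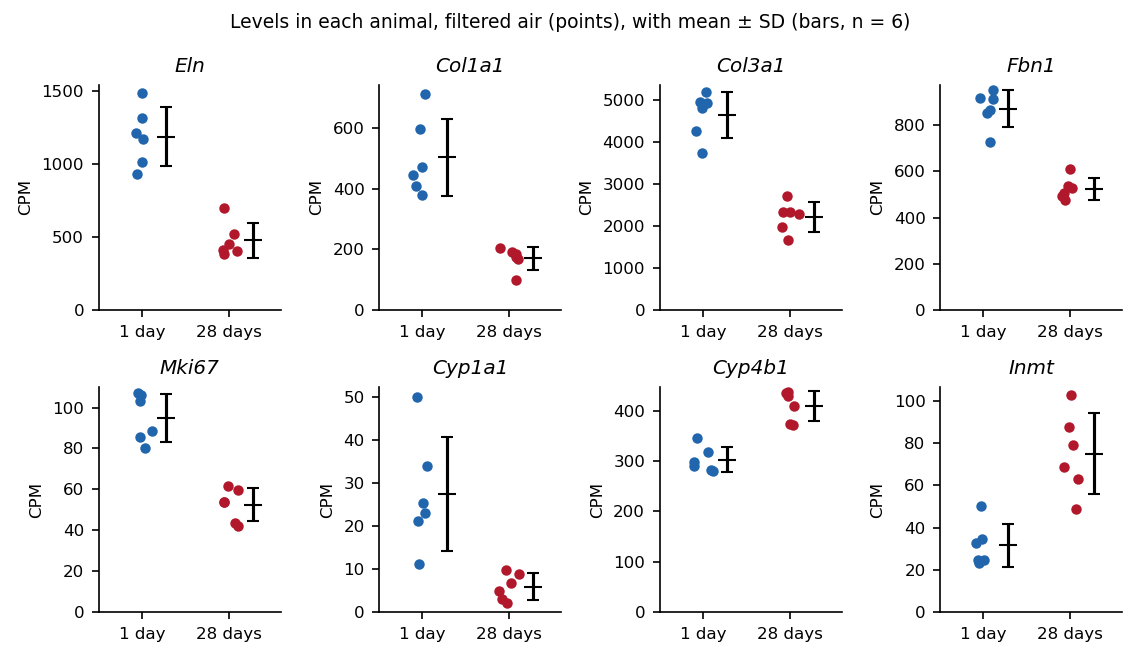
CPM (y axis, from 0) of 8 genes in each of the 6 air animals at 1 day (blue) and at 28 days (red), with the mean and SD beside the points. Eln, Col1a1, Col3a1, Fbn1, Mki67 and Cyp1a1 are lower in every 28-day animal than in every 1-day animal, Cyp4b1 is higher in every one, and for Inmt the groups touch.

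Basement membranes, the thin sheets under epithelium and endothelium, are built of laminins, type IV collagens, nidogens and heparan sulfate proteoglycans. Among 19 tested members of 22, 11 fell (57.9%), none rose and the median was -0.33. In Lamc1, a laminin chain shared by most laminins, at 1 day the lowest, median and highest levels were 568, 625 and 655 CPM, and at 28 days 433, 454 and 484 CPM. The groups did not overlap, and Lamc1 fell by 0.41 ± 0.04 on the log2 scale (adjusted p = 4.35e-06), a small change with a small spread. Nid1, the linker between laminin and type IV collagen, fell by 0.65 ± 0.08 on the log2 scale (adjusted p = 8.78e-06). Col4a1, of the most widespread type IV collagen, fell by 0.56 ± 0.09 on the log2 scale (adjusted p = 6.77e-04). Col4a5, another type IV chain, fell by 0.50 ± 0.07 on the log2 scale (adjusted p = 1.04e-04). The 8 members that did not pass had changes between -0.24 and 0.00083. Leaving out animals 17, 19 and 20 left 7 calls and a median of -0.31.

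Procollagen is hydroxylated, folded and trimmed by dedicated enzymes and chaperones, and part of these fell. Of 21 tested members of 23, 8 fell (38.1%), none rose and the median was -0.13. Sparc, a collagen-binding protein of the matrix, fell by 0.60 ± 0.07 on the log2 scale (adjusted p = 1.18e-05). Adamts2, the protease that removes the procollagen amino-terminal propeptide, fell by 0.77 ± 0.09 on the log2 scale (adjusted p = 1.40e-05). Serpinh1, the collagen chaperone of the endoplasmic reticulum, fell by 0.50 ± 0.09 on the log2 scale (adjusted p = 9.11e-04), and animal 20 was the lowest by far. P4hb, a subunit of prolyl hydroxylase, fell by 0.21 ± 0.04 on the log2 scale (adjusted p = 0.0034). Serpinh1 and P4hb had adjusted p-values of 0.0529 and 0.112 without animals 17, 19 and 20, which left 2 calls in the list. Crtap, which encodes a partner of collagen prolyl 3-hydroxylase, had 1 count in 1 library and 0 in 11, and was also named after its counts were seen.

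Among the proteases that remodel matrix, and their inhibitors, 2 of 17 tested members fell (11.8%), none rose and the median was -0.18. Mmp2, a gelatinase, fell by 0.49 ± 0.06 on the log2 scale (adjusted p = 3.36e-05). Mmp14, the membrane protease that activates it, fell by 0.60 ± 0.08 on the log2 scale (adjusted p = 3.86e-05). The list of small proteoglycans and matricellular proteins had 5 of 16 tested members that fell (31.2%), none that rose and a median of -0.26. Thbs2, a thrombospondin of the matrix, fell by 1.03 ± 0.16 on the log2 scale (adjusted p = 4.17e-04). Vcan, the large proteoglycan versican of provisional matrix, fell by 0.75 ± 0.13 on the log2 scale (adjusted p = 0.0011). Lum, a small proteoglycan that binds collagen fibrils, fell by 0.55 ± 0.11 on the log2 scale (adjusted p = 0.00512). Tnc, tenascin-C, a matrix protein of developing and healing tissue, fell by 0.76 ± 0.17 on the log2 scale (adjusted p = 0.0099). Vcan and Tnc had adjusted p-values of 0.0582 and 0.216 without animals 17, 19 and 20, with 2 calls left among the proteoglycans.

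Outside the lists, the gene with the smallest p was also one of the matrix. In Adamts17, a secreted metalloprotease, at 1 day the lowest, median and highest levels were 80.2, 99.2 and 118 CPM, and at 28 days 39.3, 49.3 and 54.3 CPM. Its groups did not overlap, and Adamts17 fell by 1.04 ± 0.10 on the log2 scale (adjusted p = 1.25e-06). The related secreted metalloprotease Adamts12 fell by 0.80 ± 0.09 on the log2 scale (adjusted p = 7.72e-06). Scn3b, an auxiliary subunit of sodium channels, fell by 1.00 ± 0.13 on the log2 scale (adjusted p = 3.23e-05). Pcdh17, a protocadherin of cell adhesion, fell by 0.60 ± 0.07 on the log2 scale (adjusted p = 2.80e-05). Armcx2 fell by 0.68 ± 0.08 on the log2 scale (adjusted p = 2.35e-05).

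Many cell division genes fell. Of 38 tested members of 38, 18 fell (47.4%), none rose, 37 lay below 0 and the median was -0.68. The list's summed level was 549.9 to 743.9 CPM at 1 day and 382 to 453.5 CPM at 28 days, without overlap. Many genes of this group share promoter elements, the CCAAT box bound by NF-Y and the CHR element, through which the DREAM complex and its relatives switch them with the cell cycle. The 250 bases upstream of the start of the 4 members with the smallest p are shown for that reason, 5′ to 3′ on the gene's own strand, from RefSeq's GRCr8 assembly, which is not the build of the counts. Capitals mark the letters CCAAT or ATTGG (its other strand) and TTTGAA or TTCAAA (its other strand), and in Mki67 one of each overlaps.
Mki67, chr1:199952594-199952843, minus strand: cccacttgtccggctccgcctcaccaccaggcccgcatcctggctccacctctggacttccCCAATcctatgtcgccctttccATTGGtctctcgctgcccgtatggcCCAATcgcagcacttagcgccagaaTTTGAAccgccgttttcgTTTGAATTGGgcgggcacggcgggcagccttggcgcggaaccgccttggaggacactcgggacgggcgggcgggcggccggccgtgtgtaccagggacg
Cenpf, chr13:103760887-103761136, minus strand: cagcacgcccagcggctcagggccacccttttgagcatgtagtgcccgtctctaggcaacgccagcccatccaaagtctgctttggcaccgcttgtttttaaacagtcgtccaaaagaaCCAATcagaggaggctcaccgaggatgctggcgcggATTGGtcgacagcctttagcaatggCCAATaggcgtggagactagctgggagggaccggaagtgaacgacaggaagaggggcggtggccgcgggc
Cdk1, chr20:19265043-19265292, plus strand: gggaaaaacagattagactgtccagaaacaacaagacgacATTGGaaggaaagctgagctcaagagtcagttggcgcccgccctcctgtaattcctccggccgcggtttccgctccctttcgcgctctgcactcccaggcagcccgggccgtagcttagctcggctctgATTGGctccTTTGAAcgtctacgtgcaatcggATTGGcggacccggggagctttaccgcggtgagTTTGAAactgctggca
Prc1, chr1:143659231-143659480, plus strand: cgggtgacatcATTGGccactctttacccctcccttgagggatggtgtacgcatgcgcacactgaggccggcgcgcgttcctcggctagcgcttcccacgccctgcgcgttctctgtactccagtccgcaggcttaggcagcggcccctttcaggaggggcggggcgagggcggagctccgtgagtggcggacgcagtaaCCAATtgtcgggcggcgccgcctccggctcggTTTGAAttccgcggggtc
CCAAT, on either strand, occurred 4 times upstream of Mki67, 3 times upstream of Cenpf, 3 times upstream of Cdk1 and 2 times upstream of Prc1. TTTGAA, on either strand, occurred 2 times upstream of Mki67, 2 times upstream of Cdk1 and 1 time upstream of Prc1, and 0 times upstream of Cenpf. Of the list's 30 genes with a promoter in the table, 21 held CCAAT (70%) and 12 held TTTGAA (40%). Among all 33469 promoters of the table the shares were 34% and 16.2%, and among the 10049 of genes tested here 35.1% and 10.5%. The elements were present in members that passed and in members that did not: CCAAT in 13 of 16 and 8 of 14, and TTTGAA in 8 of 16 and 4 of 14. These matches describe the letters in the window and show no binding.

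Mki67, the nuclear proliferation marker Ki-67, showed the pattern: at 1 day the lowest, median and highest levels were 80.2, 95.8 and 107 CPM, and at 28 days 42.2, 54 and 61.5 CPM. No animal at 28 days reached the lowest at 1 day, and Mki67 fell by 0.83 ± 0.11 on the log2 scale (adjusted p = 7.17e-05). Cenpf, a kinetochore protein, fell by 1.05 ± 0.15 on the log2 scale (adjusted p = 1.04e-04). Cdk1, the kinase that drives entry into mitosis, fell by 1.07 ± 0.17 on the log2 scale (adjusted p = 3.87e-04). Prc1, which bundles microtubules of the dividing cell's midzone, fell by 0.63 ± 0.11 on the log2 scale (adjusted p = 0.00125). Other named genes have known roles in mitosis or DNA replication. Fam64a, a mitotic gene, fell by 1.87 ± 0.26 on the log2 scale (adjusted p = 1.04e-04). Ckap2, a spindle-associated protein, fell by 1.21 ± 0.24 on the log2 scale (adjusted p = 0.00384). Asf1b, a histone chaperone of replication, fell by 1.20 ± 0.33 on the log2 scale (adjusted p = 0.0417), a call that ended when any 1 of 9 animals was left out, with adjusted p up to 0.0985 (without animal 19). Hist1h1d, a linker histone, fell by 0.66 ± 0.12 on the log2 scale (adjusted p = 0.00138). Pola2, a subunit of DNA polymerase alpha, fell by 0.51 ± 0.08 on the log2 scale (adjusted p = 4.25e-04). Without animals 17, 19 and 20, 4 of the 38 members passed, with a median of -0.62, and the adjusted p-values of Ckap2 and Asf1b were 0.101 and 0.265. Leaving out 1 animal at a time gave 13 to 20 calls and medians from -0.768 to -0.637.

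In the list of imprinted and fetal growth genes, 3 of 14 tested members fell (21.4%), none rose and the median was -0.22. In Mest, an imprinted gene of mesoderm and a marker of growth, at 1 day the lowest, median and highest levels were 6.99, 10.8 and 15 CPM, and at 28 days 2.39, 3.56 and 4.41 CPM. The groups did not overlap, and Mest fell by 1.58 ± 0.25 on the log2 scale (adjusted p = 5.08e-04). Grb10, an imprinted inhibitor of growth signalling, fell by 0.28 ± 0.06 on the log2 scale (adjusted p = 0.0099). Igf2r, the receptor that clears insulin-like growth factor 2, fell by 0.19 ± 0.04 on the log2 scale (adjusted p = 0.0133). Ndn, another imprinted gene, did not pass at -0.50 ± 0.15 (adjusted p = 0.078). It passed without animal 2 (0.0365) and with other-tissue scores as covariates (0.0452). Of 17 tested genes of growth hormone and insulin-like growth factor signalling, 1 fell and 1 rose (5.88% each). Igf1, the growth factor induced by growth hormone, fell by 0.53 ± 0.10 on the log2 scale (adjusted p = 0.00169). Irs2, an adaptor of the insulin and IGF1 receptors, rose by 0.35 ± 0.09 on the log2 scale (adjusted p = 0.0268), a call lost on leaving out any 1 of 7 animals, with adjusted p up to 0.0667 (without animal 9). Grb10, Igf2r, Igf1 and Irs2 had adjusted p-values of 0.198, 0.0839, 0.105 and 0.216 without animals 17, 19 and 20.

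The other large falls were in genes of different kinds. In Cyp1a1, the cytochrome P450 induced through the aryl hydrocarbon receptor, at 1 day the lowest, median and highest levels were 11.2, 24.3 and 50 CPM, and at 28 days 2.28, 5.95 and 9.75 CPM. The groups did not overlap although the 1-day animals were widely spread, and Cyp1a1 fell by 2.191 ± 0.35 on the log2 scale (adjusted p = 5.17e-04). Ccno, a cyclin-like protein needed for multiciliated cells, fell by 1.63 ± 0.31 on the log2 scale (adjusted p = 0.00272). Clec11a, a secreted growth factor, fell by 1.32 ± 0.26 on the log2 scale (adjusted p = 0.00396). Rnf112 fell by 1.37 ± 0.32 on the log2 scale (adjusted p = 0.0164). Ccno, Clec11a and Rnf112 had adjusted p-values of 0.128, 0.112 and 0.19 with animals 17, 19 and 20 left out.

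Mesenchymal marker genes that are not matrix moved in both directions. Of 16 tested fibroblast markers 3 fell (18.8%) and 1 rose (6.25%), with a median of -0.16. The 3 that fell encode matrix proteins and stand in the matrix lists too: Lum, Col14a1 and Mfap5. Col14a1, a collagen on the fibril surface, fell by 0.64 ± 0.13 on the log2 scale (adjusted p = 0.00556). Mfap5, a microfibril glycoprotein, fell by 0.49 ± 0.12 on the log2 scale (adjusted p = 0.0235), with a call that ended without animal 4, 17 or 22 (adjusted p of 0.0601, 0.0598 and 0.0625). In Pdgfra, the receptor for platelet-derived growth factor that marks alveolar fibroblasts, at 1 day the lowest, median and highest levels were 199, 252 and 279 CPM, and at 28 days 282, 323 and 364 CPM. All 6 animals at 28 days were above all 6 at 1 day, and Pdgfra rose by 0.39 ± 0.09 on the log2 scale (adjusted p = 0.0187), but the adjusted p was 0.0526 without animal 20. Without animals 17, 19 and 20, Pdgfra had an adjusted p of 0.244, Col14a1 of 0.0608 and Mfap5 of 0.263. Of 11 pericyte markers 3 fell (27.3%), none rose and the median was -0.18. Pdgfrb, the receptor that marks pericytes, fell by 0.27 ± 0.07 on the log2 scale (adjusted p = 0.0239), and had adjusted p-values of 0.0507 and 0.0631 without animal 3 or 4. Postn, periostin, fell by 0.23 ± 0.06 on the log2 scale (adjusted p = 0.0252), lost on leaving out any 1 of 5 animals (up to 0.0721, without animal 1). Lamc3, a laminin chain, fell by 0.77 ± 0.22 on the log2 scale (adjusted p = 0.0493), lost on leaving out any 1 of 10 animals (up to 0.117, without animal 18). Of 15 smooth muscle genes 2 fell (13.3%), none rose and the median was -0.14. Ntrk3, a neurotrophin receptor, fell by 0.53 ± 0.12 on the log2 scale (adjusted p = 0.016), with 0.0545 without animal 3. Mylk, the myosin light chain kinase of contraction, fell by 0.20 ± 0.05 on the log2 scale (adjusted p = 0.0334), lost on leaving out any 1 of 9 animals (up to 0.0929, without animal 3). Pdgfrb, Postn, Lamc3, Ntrk3 and Mylk had adjusted p-values of 0.0825, 0.112, 0.068, 0.0894 and 0.249 without animals 17, 19 and 20.

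Endothelial markers split. Of 19 tested capillary markers 2 rose and 2 fell (10.5% each), with a median of 0.04. In Tek, the angiopoietin receptor TIE2, at 1 day the lowest, median and highest levels were 533, 582 and 637 CPM, and at 28 days 634, 727 and 765 CPM. The lowest animal at 28 days was just below the highest at 1 day, and Tek rose by 0.31 ± 0.06 on the log2 scale (adjusted p = 0.00205). Ptprb, the endothelial phosphatase that acts on TIE2, rose by 0.26 ± 0.06 on the log2 scale (adjusted p = 0.00953). Emcn, endomucin of capillaries and veins, fell by 0.48 ± 0.09 on the log2 scale (adjusted p = 0.00236). Tbx2, a transcription factor of the aerocyte capillary cell and of mesenchyme, fell by 0.33 ± 0.07 on the log2 scale (adjusted p = 0.0095). Of 20 markers of larger vessels and lymphatics, 2 fell (10%) and 1 rose (5%). Gja4, a connexin of arterial endothelium, fell by 0.46 ± 0.09 on the log2 scale (adjusted p = 0.00236). Vcam1, the leukocyte adhesion molecule, fell by 0.37 ± 0.08 on the log2 scale (adjusted p = 0.00914). Efnb2, the arterial ephrin, rose by 0.35 ± 0.09 on the log2 scale (adjusted p = 0.0297), lost on leaving out any 1 of 5 animals (up to 0.0849, without animal 10). Without animals 17, 19 and 20 these 7 genes had adjusted p-values from 0.0598 to 0.243.

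Of the epithelial markers listed, 1 passed the test. None of 17 alveolar type 2 and 15 alveolar type 1 markers passed, with medians of 0.10 and 0.04, although 4 and 5 of them had an unadjusted p below 0.05. Slc34a2, the phosphate transporter of type 2 cells, changed by 0.15 ± 0.06 (adjusted p = 0.184). Sftpa1, surfactant protein A, changed by 0.16 ± 0.07 (adjusted p = 0.213). None of 13 club cell and 18 ciliated cell markers passed, with medians of 0.04 and -0.19 and with 5 and 1 of them at an unadjusted p below 0.05. Of the club cell markers 7 lay above 0 and 6 below, with changes down to -3.12. Bpifa1 of that list lay at 4.15 to 49.8 CPM at 1 day and at 0.191 to 3.82 CPM at 28 days, without overlap. Its lowest value was below the level of 3 counts. Cyp2b1, a P450 of club cells, changed by 0.36 ± 0.11 (adjusted p = 0.0685), and passed in DESeq2 (0.0286). It also passed in the fits of the 12 air libraries (0.0301), of all 48 libraries (0.0254) and with other-tissue scores as covariates (0.0176). Of 8 mucus and goblet genes 1 rose (12.5%): Pigr, the transporter of secretory antibodies, rose by 0.33 ± 0.09 on the log2 scale (adjusted p = 0.043), a call lost on leaving out any 1 of 9 animals (up to 0.121, without animal 9). The median of this list was -0.40, with 4 members above 0, 4 below, and 5 at an unadjusted p below 0.05. Bpifb1, a secreted airway protein, had the lowest change of that list at -2.12 ± 0.60 and did not pass (adjusted p = 0.0509), although it passed without animal 1 (0.0322) or 20 (0.0447). It also passed in the fit of the 12 air libraries (0.0224) and with other-tissue scores as covariates (0.0075). Pigr had an adjusted p of 0.278 without animals 17, 19 and 20.

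The rising genes included enzymes that handle foreign compounds. Of 29 tested phase 1 enzymes 3 rose (10.3%) and Cyp1a1 fell (3.45%), with a median of 0.08. In Cyp4b1, a P450 abundant in lung, at 1 day the lowest, median and highest levels were 279.7, 294 and 345 CPM, and at 28 days 372, 418 and 438 CPM. The groups did not overlap, and Cyp4b1 rose by 0.45 ± 0.06 on the log2 scale (adjusted p = 1.04e-04), the smallest p among the genes that rose. Fmo1, a flavin monooxygenase, rose by 0.49 ± 0.10 on the log2 scale (adjusted p = 0.00438). Ces1d, a carboxylesterase, rose by 0.40 ± 0.09 on the log2 scale (adjusted p = 0.0187), with 0.0523 and 0.0534 without animal 4 or 19. In Inmt, a methyltransferase of indolethylamines that is abundant in lung, at 1 day the lowest, median and highest levels were 23.1, 28.8 and 50.2 CPM, and at 28 days 48.7, 74 and 103 CPM. The groups overlapped only between the lowest animal at 28 days and the highest at 1 day, and Inmt rose by 1.26 ± 0.24 on the log2 scale (adjusted p = 0.0027). Inmt and Ces1d had adjusted p-values of 0.135 and 0.155 without animals 17, 19 and 20. No gene of 22 conjugating enzymes or 24 antioxidant and NRF2 target genes passed, with 3 and 1 of them at an unadjusted p below 0.05 and medians of 0.03 and 0.04.

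Natural killer and cytotoxic genes lay above 0 as a list, 15 of 15 tested of 21, with a median of 0.48, but 2 of them passed (13.3%, against 1.01% of all genes). In Gzma, granzyme A of cytotoxic granules, at 1 day the lowest, median and highest levels were 11.3, 12.9 and 15.7 CPM, and at 28 days 16.2, 21.3 and 31.6 CPM. The groups did not overlap, and Gzma rose by 0.81 ± 0.19 on the log2 scale (adjusted p = 0.0189). Without animal 17 or 20 its adjusted p was 0.0595 or 0.0523. Ccl5, a chemokine of cytotoxic lymphocytes, rose by 0.65 ± 0.16 on the log2 scale (adjusted p = 0.0264), lost on leaving out any 1 of 4 animals (up to 0.0894, without animal 17). Prf1, perforin, did not pass at 0.57 ± 0.17 (adjusted p = 0.0607), although it passed without animal 23 (0.0277). It also passed in DESeq2 (0.0252) and in the fits of the 12 air libraries (0.0454) and of all 48 libraries (0.0402). The list's calls numbered 0 without animal 17, 1 without animal 9, 10 or 18, and 4 without animal 23. They numbered 0 without animals 17, 19 and 20 (median 0.269) and 1 with other-tissue scores as covariates (median 0.326). Outside the list, Ly49i4, of a natural killer receptor family whose near-identical copies can split reads, had 0.62, 1.14 and 1.9 CPM as its lowest, median and highest levels at 1 day and 1.94, 4.61 and 6.85 CPM at 28 days. Ly49i4 rose by 1.96 ± 0.34 on the log2 scale (adjusted p = 0.00133). Il12rb2, a chain of the interleukin 12 receptor, rose by 0.60 ± 0.17 on the log2 scale (adjusted p = 0.0429), lost on leaving out any 1 of 9 animals (up to 0.116, without animal 20). Gzma, Ccl5 and Il12rb2 had adjusted p-values of 0.3, 0.198 and 0.361 without animals 17, 19 and 20. None of 22 T cell genes, with 20 above 0 and a median of 0.16, and none of 20 B and plasma cell genes passed, while 1 and 0 of them had an unadjusted p below 0.05.

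Of 17 tested cytokine and NF-kB response genes 3 rose (17.6%), none fell and the median was 0.27. In Il1a, the cytokine interleukin 1 alpha, at 1 day the lowest, median and highest levels were 9.09, 11.2 and 14.8 CPM, and at 28 days 16.1, 19.9 and 30.8 CPM. The groups did not overlap, and Il1a rose by 0.87 ± 0.14 on the log2 scale (adjusted p = 4.97e-04). Tnfaip3, the NF-kB inhibitor A20, rose by 0.53 ± 0.10 on the log2 scale (adjusted p = 0.00384), with 0.0825 without animals 17, 19 and 20. Socs3, an inhibitor of cytokine signalling, rose by 0.71 ± 0.19 on the log2 scale (adjusted p = 0.0399), lost on leaving out any 1 of 7 animals (up to 0.12, without animal 17), and at 0.249 without animals 17, 19 and 20. None of 40 interferon-induced genes passed, with 6 at an unadjusted p below 0.05 and a median of -0.04.

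Immediate early genes, which respond within minutes to stimuli and to tissue handling, were above 0 in 23 of 23 tested members of 27, with a median of 0.50, and 7 rose (30.4%). Klf2, a flow-responsive factor of endothelium, rose by 0.77 ± 0.17 on the log2 scale (adjusted p = 0.0119). Dusp1, a phosphatase of the MAP kinases that glucocorticoids also induce, rose by 0.87 ± 0.20 on the log2 scale (adjusted p = 0.0139). Jun, a subunit of AP-1, rose by 0.51 ± 0.13 on the log2 scale (adjusted p = 0.0289), lost on leaving out any 1 of 5 animals (up to 0.0804, without animal 17). Nr4a3, an orphan nuclear receptor, rose by 1.18 ± 0.30 on the log2 scale (adjusted p = 0.029), also lost for any 1 of 5 animals (up to 0.118, without animal 17). Their groups overlapped, as did the list's sums, 1200 to 2050 CPM at 1 day and 1724 to 3391 CPM at 28 days. The highest sum was that of animal 17, which also had the highest liver sum, and without this animal 2 members passed, 4 lay below 0 and the median was 0.24. Calls also numbered 2 without animal 1, 9 or 10, 4 without animal 18 and 3 without animal 19, and 1 member passed when the 12 air libraries were fitted alone. No member passed with animals 17, 19 and 20 left out or with other-tissue scores as covariates, where the medians were 0.185 and 0.235. The part of tissue handling in this result was not tested. Among 18 genes induced by glucocorticoids, Dusp1 was the 1 that rose (5.56%), with a median of 0.40.

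The remaining named genes that rose were of varied kinds. Crem, a transcription factor of cAMP signalling, rose by 0.63 ± 0.11 on the log2 scale (adjusted p = 0.00169). Sik1, a kinase induced by cAMP, rose by 0.81 ± 0.15 on the log2 scale (adjusted p = 0.00194). Txnip, an inhibitor of thioredoxin that responds to glucose, rose by 0.31 ± 0.06 on the log2 scale (adjusted p = 0.00189). Ipmk, an inositol phosphate kinase, rose by 0.46 ± 0.07 on the log2 scale (adjusted p = 3.67e-04). Mcl1, a survival protein of the BCL2 family, rose by 0.38 ± 0.06 on the log2 scale (adjusted p = 5.08e-04). Anxa8, an annexin, rose by 0.44 ± 0.08 on the log2 scale (adjusted p = 0.0022). Gprin3 rose by 0.39 ± 0.07 on the log2 scale (adjusted p = 0.00154). Jade2 rose by 0.37 ± 0.07 on the log2 scale (adjusted p = 0.00168). Syne1-2 rose by 0.26 ± 0.04 on the log2 scale (adjusted p = 8.00e-04). In Lepr, the leptin receptor, at 1 day the lowest, median and highest levels were 14, 18.3 and 21.9 CPM, and at 28 days 23.6, 27.8 and 31 CPM. Lepr rose by 0.59 ± 0.14 on the log2 scale (adjusted p = 0.0224), with 0.0539 and 0.051 without animal 9 or 10. Ret, a receptor tyrosine kinase, rose by 0.56 ± 0.13 on the log2 scale (adjusted p = 0.0123). Ucp3, a mitochondrial carrier, rose by 0.94 ± 0.22 on the log2 scale (adjusted p = 0.0158). Sytl3, a synaptotagmin-like protein of vesicle traffic, rose by 0.70 ± 0.15 on the log2 scale (adjusted p = 0.00596). Tmem229a rose by 1.14 ± 0.26 on the log2 scale (adjusted p = 0.0144). Crem, Sik1, Gprin3, Lepr, Ret, Ucp3, Sytl3 and Tmem229a had adjusted p-values from 0.0515 to 0.27 without animals 17, 19 and 20.

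In metabolism, 3 of 23 cholesterol synthesis and uptake genes fell (13%), none rose and the median was -0.17. Hmgcs1, the synthase that feeds the pathway, fell by 0.60 ± 0.12 on the log2 scale (adjusted p = 0.00581). Hsd17b7, of the late pathway, fell by 0.57 ± 0.14 on the log2 scale (adjusted p = 0.0186). Dhcr7, the last reductase, fell by 0.55 ± 0.15 on the log2 scale (adjusted p = 0.046), lost on leaving out any 1 of 10 animals (up to 0.135, without animal 10). Of 19 tested hypoxia genes 2 rose (10.5%) and none fell. Ndrg1, a stress-induced gene, rose by 0.33 ± 0.07 on the log2 scale (adjusted p = 0.00604). Ero1l, an oxidase of the endoplasmic reticulum, rose by 0.39 ± 0.08 on the log2 scale (adjusted p = 0.00636). Hsd17b7, Dhcr7 and Ero1l had adjusted p-values of 0.249, 0.441 and 0.151 without animals 17, 19 and 20. None of 29 respiratory chain subunits, 16 fatty acid synthesis genes or 31 ribosomal proteins passed, with medians of -0.02, 0.05 and 0.08, and 1, 5 and 6 of them at an unadjusted p below 0.05.

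Transcripts of other tissues were tested in the same way. Of the 9 ventricular genes tested all lay above 0 with a median of 0.73, 1 had an unadjusted p below 0.05 and none passed. Myh7, the slow myosin heavy chain, had 5.53, 17.2 and 91.1 CPM as lowest, median and highest levels at 1 day and 2.12, 66 and 207 CPM at 28 days (adjusted p = 0.359). The 10 liver genes tested all lay above 0 with a median of 1.93, 9 had an unadjusted p below 0.05 and 1 passed (10%). Alb, serum albumin, had 6.64, 19.9 and 41 CPM at 1 day and 24.9, 34.4 and 586 CPM at 28 days as lowest, median and highest, the last in animal 17 (adjusted p = 0.0647). Alb passed in DESeq2 (0.0216). Serpina1, an antiprotease that macrophages also make, rose by 0.71 ± 0.19 on the log2 scale (adjusted p = 0.0306), lost on leaving out any 1 of 7 animals (up to 0.101, without animal 17). The gene of that list that passed was Serpina1. Pzp, a protease inhibitor of plasma that is not in the list, rose by 2.73 ± 0.77 on the log2 scale (adjusted p = 0.049), with 0.443 without animal 17 and above 0.05 without any 1 of 7 animals. Serpina1 and Pzp had adjusted p-values of 0.415 and 0.574 without animals 17, 19 and 20. Of 15 erythroid genes 13 lay above 0, with a median of 0.33. Hba1, an alpha globin gene whose copies can split reads, was 1 of the 2 others. It fell by 0.60 ± 0.13 on the log2 scale (adjusted p = 0.0103). The adjusted p of Hba1 was 0.158 without animals 17, 19 and 20, and 0.211 in the fit of all 48 libraries. How much of any lung result is due to these transcripts was not tested. With scores of them as covariates, 423 genes passed, 127 higher and 296 lower, and the cell division, fibrillar collagen, elastic fibre and basement membrane lists had 15, 8, 11 and 11 calls.

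Other lists held few calls. Of 23 tested complement and acute phase genes 2 fell (8.7%) and 1 rose (4.35%). C7, of the membrane attack complex, fell by 0.36 ± 0.09 on the log2 scale (adjusted p = 0.0203), with 0.0608 as the highest of 3 single-animal omissions that ended the call (animal 22). C6, of the same complex, fell by 1.14 ± 0.31 on the log2 scale (adjusted p = 0.0424), with up to 0.171 without animal 10. C5, which starts that complex, rose by 0.55 ± 0.15 on the log2 scale (adjusted p = 0.046), with up to 0.111 without animal 10. Of 12 dendritic cell genes 1 fell (8.33%): Fscn1, an actin-bundling protein, fell by 0.57 ± 0.15 on the log2 scale (adjusted p = 0.0301), with up to 0.0778 without animal 20. Of 23 endoplasmic reticulum stress genes 1 fell (4.35%): Pdia6, a disulfide isomerase, fell by 0.22 ± 0.05 on the log2 scale (adjusted p = 0.015), with 0.0506 without animal 9. Of 17 heat shock genes 1 rose (5.88%): Dnajb4, a co-chaperone, rose by 0.39 ± 0.11 on the log2 scale (adjusted p = 0.0458), with up to 0.124 without animal 20. Of 7 nerve and glia genes 1 fell (14.3%): Pmp22, a myelin protein that fibroblasts also make, fell by 0.23 ± 0.06 on the log2 scale (adjusted p = 0.0291), with up to 0.0706 without animal 1. C5 failed on leaving out any 1 of 9 animals, C6 and Dnajb4 any 1 of 8, and Fscn1 and Pmp22 any 1 of 7. Of these 7 genes, C7 alone passed without animals 17, 19 and 20. None passed among 16 alveolar macrophage, 16 interstitial macrophage and monocyte, 9 neutrophil, 11 mast cell, eosinophil and basophil, 11 MHC class II, 18 MHC class I and 19 circadian clock genes. Their unadjusted p was below 0.05 for 5, 6, 0, 2, 0, 5 and 5 genes.

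The same 4 weeks were also covered by the animals exposed once to oil vapor at 300 ppm for 6 h. There 1398 genes passed at 28 against 1 day (9.43%), 738 lower (4.98%) and 660 higher (4.45%). The cell division list had a median of -0.96 with 30 calls lower, and the elastic fibre list -0.36 with 11. The fibrillar collagen list had -0.38 with 7 and the basement membrane list -0.26 with 10. Eln changed by -1.23 ± 0.14 there and by -1.29 ± 0.14 in air. Mki67 changed by -1.03 ± 0.11 there and by -0.83 ± 0.11 in air. Col1a1 changed by -0.997 ± 0.16 there and by -1.54 ± 0.16 in air, with a difference of 0.54 ± 0.23 (adjusted p = 0.592). The difference between both changes was tested for every gene, and 0 genes passed in edgeR (0%), with 1160 at an unadjusted p below 0.05 (7.83%). DESeq2 called 21 and limma-voom 0, and edgeR called 7, 10, 9 and 7 without animal 18, 20, 22 or 23. No oil vapor animal was left out 1 at a time. The smallest adjusted p was 0.0572, shared by Ttr, a plasma transport protein, Alb and Pzp, which are liver transcripts.

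The air controls of the repeated schedule gave another 28-day interval, which began after 4 weeks of sessions. Lungs of the repeated schedule at 1 day were thus taken about as long after the first session as those of the single schedule at 28 days, and the labels used here do not say whether both schedules started together. In that later interval 131 of 15322 genes passed (0.855%), 95 higher (0.62%) and 36 lower (0.235%), when all 48 libraries were fitted together. The single-schedule air animals gave 378 in that fit (2.47%), 258 of them lower (1.68%). The cell division list had a median of -0.03, the fibrillar collagen list -0.08, the elastic fibre list -0.01 and the basement membrane list -0.12. Of their members 1, in the cell division list, fell in that interval. The difference between the 2 changes was tested as an interaction, and 27 genes passed (0.176%, beside 9.74% at an unadjusted p below 0.05), 15 with a higher value in the repeated schedule (0.0979%) and 12 with a lower one (0.0783%). The count was 17 with no filter on low counts, 80 in limma-voom, 114 in DESeq2 and 138 with other-tissue scores as covariates.

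The 28-day animals of the repeated schedule showed a similar order of other-tissue levels as those of the single schedule, when both were placed in the order of their animal numbers. The liver sum was 1289 CPM in animal 17 and 1516 CPM in animal 82, the first in each group, and at most 338.6 CPM in the others. The ventricular sum was 1197 and 893 CPM in animals 19 and 20, and 1198 and 964.2 CPM in animals 84 and 86 at the same places. The erythroid sum was highest in the last animals, 10090 CPM in animal 23 and 8167 CPM in animal 88. Over 12343 genes outside the other-tissue lists, with a mean of log2(CPM + 1) above that of 5 CPM, deviations from the group mean correlated at 0.0408 to 0.384 between animals at the same place. Between animals at other places the correlation was -0.299 to 0.228, and for 4 of 6 animals the same place gave the highest value. At 1 day, over 12436 genes, the same place gave -0.0679 to 0.236 and the highest value for 2 of 6 animals. The log2 sums at 1 day correlated by place at 0.928 for erythroid and 0.622 for liver genes. For ventricular and atrial genes the values were -0.00793 and -0.264. At 28 days the 4 lists gave 0.981, 0.996, 0.95 and 0.94. For the fibrillar collagen, elastic fibre, basement membrane, cell division and immediate early lists the 28-day values were -0.684, 0.00479, 0.586, -0.224 and 0.022. Their 1-day values were -0.292, -0.106, 0.0528, 0.801 and -0.522. The erythroid sum at 1 day was highest in animals 9 and 10 (7275 and 5504 CPM), and in animals 39 and 40 (5421 and 5303 CPM) at the same places. The animal numbers differ between the schedules and no label pairs them, so that a place in the order is not a pairing. The order was looked at after the data were seen, and neither its cause nor the independence of the schedules was tested. On leaving out animals 17, 19, 20, 82, 84 and 86, which keeps 3 animals in each 28-day air group, 0 genes passed for the schedule difference in edgeR, with 953 at an unadjusted p below 0.05. The log2 differences of the 10 genes named for it were then between -1.24 and 1.17, all with the same sign as before, and their adjusted p-values between 0.157 and 0.643.

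**Figure D4:**
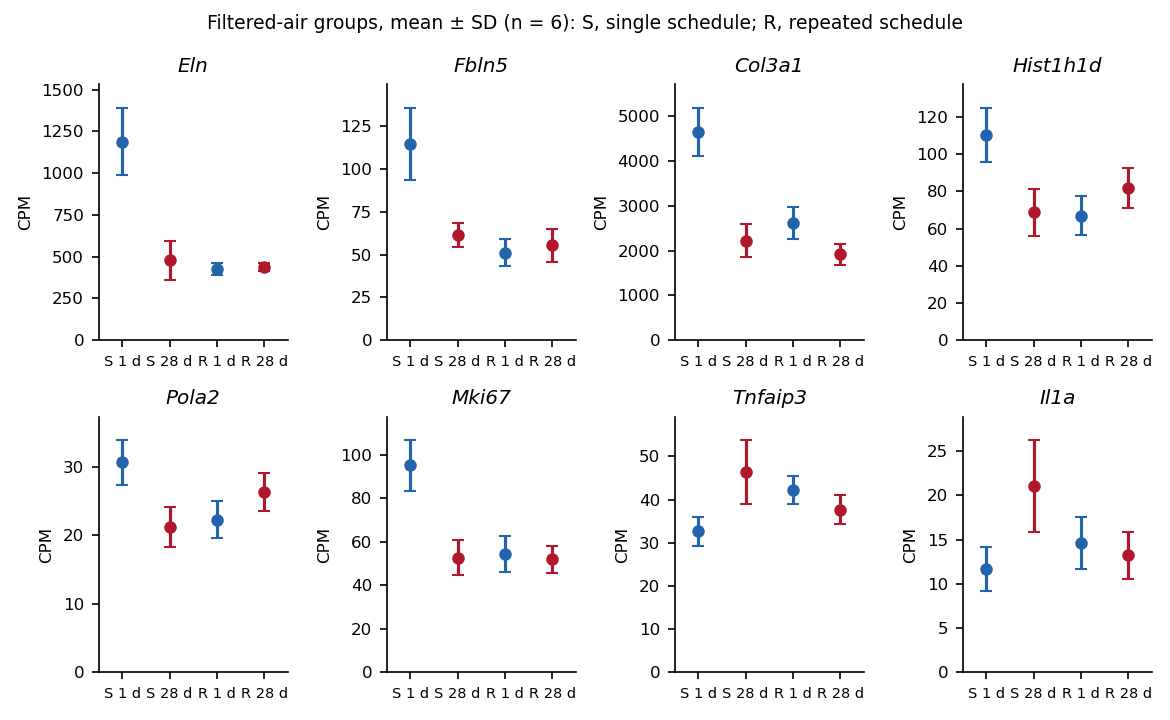
Mean and SD of CPM (y axis, from 0, n = 6 animals per point) of 8 genes in the 4 filtered-air groups, S for the single and R for the repeated schedule, at 1 day (blue) and 28 days (red). Eln stands at 1189 CPM in the first group and between 428 and 478 CPM in the other 3, and Mki67 falls from 95.1 to between 52 and 54.5 CPM.

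Eln had the smallest p of that difference. Its level was 1189 ± 202 CPM (SD, n = 6) at 1 day and 478 ± 119 CPM at 28 days of the single schedule. In the repeated schedule it was 428 ± 36.9 CPM at 1 day and 439 ± 23.8 CPM at 28 days. Every animal of the first group (lowest 931 CPM) was above every animal of the other 3 (highest 699 CPM), and the changes of Eln differed by 1.37 ± 0.20 (adjusted p = 3.19e-04). Hist1h1d changed by 0.33 ± 0.11 in the repeated schedule, a difference of 0.99 ± 0.16 (adjusted p = 0.00145). Pola2 changed by 0.27 ± 0.10 there, a difference of 0.78 ± 0.15 (adjusted p = 0.0144). Fbln5 changed by 0.16 ± 0.15 there, a difference of 1.03 ± 0.22 (adjusted p = 0.0266), with 0.0686 and 0.0618 without animal 4 or 20. P4hb changed by 0.09 ± 0.05 there, a difference of 0.30 ± 0.07 (adjusted p = 0.0377), lost on leaving out any 1 of 8 animals (up to 0.0927, without animal 20). For Col3a1 and Mki67 the changes of -0.41 ± 0.12 and -0.03 ± 0.19 in the repeated schedule did not differ beyond the threshold (adjusted p = 0.0926 and 0.224).

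Some genes that rose in the single schedule differed in the opposite direction. Tnfaip3 changed by -0.12 ± 0.09 in the repeated schedule, a difference of -0.66 ± 0.13 (adjusted p = 0.016). Ipmk changed by -0.02 ± 0.07 there, a difference of -0.49 ± 0.10 (adjusted p = 0.0258). Il1a changed by -0.10 ± 0.16 there, a difference of -0.97 ± 0.22 (adjusted p = 0.0423), lost on leaving out any 1 of 7 animals (up to 0.0933, without animal 19). Tmem229a changed by -0.58 ± 0.25 there, a difference of -1.73 ± 0.37 (adjusted p = 0.0275), lost on leaving out any 1 of 4 animals (up to 0.0686, without animal 4). Hepacam2 had not passed in the single schedule in the fit of 24 libraries (0.60 ± 0.18, adjusted p = 0.0642). It passed there in the fit of all 48 libraries (0.606, adjusted p = 0.043), which also gave the schedule difference. Hepacam2 changed by -0.61 ± 0.16 in the repeated schedule, a difference of -1.22 ± 0.23 (adjusted p = 0.0144). The count of 27 ranged from 11 without animal 4 to 47 without animal 2, and was also outside 1.5-fold without animals 1 (14), 18 (43) and 20 (13). For this count and for each gene's schedule difference, only the 12 single-schedule air animals were left out 1 at a time. No animal of the repeated schedule was.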

How the data were processed

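Lung RNA of 48 rats was sequenced, 6 per group, from stranded, ribosome-depleted libraries, per the labels' protocols. The deposited values are raw read counts per gene, 1 column per animal, in 1 table per schedule. Per the submitters' processing notes reads were handled with HISAT2 2.1.0 (build Rnor_6.0), HTSeq 0.6.1, SAMtools 1.8, Trimmomatic 0.35 and bcl2fastq 2.19. Which annotation and which strand option the counting used is not given in the sources used here. Counts of overlapping and antisense genes and of near-identical copies (globin genes, Ly49 receptors) are therefore uncertain. Mitochondrially encoded transcripts are not analysed here.

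The counts were tested with edgeR 4.0.16 (R 4.3.3): filterByExpr, TMM scaling and the quasi-likelihood test on group means of the 24 single-schedule libraries, with the oil vapor difference as a contrast, and of all 48 libraries for the schedule difference. A gene was called at an adjusted p (Benjamini-Hochberg over all genes tested) below 0.05. Each SE is that of the log2 change, from its size and its test statistic. CPM values are counts per 1000000 of the library total, without scaling factors. Library totals were 3.60 to 6.13 M counts. The floor of 3 counts covers counting error only. Levels compared across schedules come from separate tables. In each of the 30 pairs of same-group animals the counts differed beyond sampling noise (chi-square per gene of 3.39 to 13.7), so each animal is 1 sample. Alternatives were DESeq2 1.42.0, limma-voom (limma 3.58.1), other scaling, filters and samples. The test was checked on simulated counts.

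The comparison, the 62 gene lists and the tests were chosen with earlier results of these data known. Named genes had a symbol and a mean of at least 1 CPM: the 15 with the smallest p per direction, the 10 with the largest called change per direction and no overlap, up to 4 members with the smallest p per list, and 5 per difference. Members of lists that did not pass are given mostly by count. Fbln5, P4hb, Il1a and Tmem229a, named for the schedule difference, were added after their values were seen. Of the table's 30045 genes, 7263 were at 0 in the 12 libraries. Among the 30045 symbols, 19073 were gene symbols in RefSeq and 2409 matched a synonym only. Promoters were looked up by the exact symbol, without synonyms.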

Additional observations from a re-analysis of the deposited data

Results flagged for a closer look

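Single animals stood far from the other 5 of their group in 13 of 252 groups of values checked. Chance picks about 1 group in 20 by this test, and the count of 13 was close to that rate. Of the 13, 10 were at 28 days and 6 were in animal 17. Animal 17 was highest at 28 days for Alb (585.8 CPM, next 39.44), Pzp (50.56, next 4.969), Ttr (29.19, next 2.695), Nr4a3 (15, next 5.948), the liver sum (1289, next 300.1) and the immediate early sum (3391, next 2116). Animal 20 was lowest at 28 days for Col1a1 (98.8 CPM, next 169.5) and Serpinh1 (293.7, next 361.9). Animal 18 was highest for Fam64a (1.72 CPM, next 0.8812), and animal 23 for the erythroid sum (10090 CPM, next 4825). At 1 day, animal 2 was highest for Gprin3 (69.91 CPM, next 60.78) and Myl3 (58.99, next 18) and lowest for Sparc (2637, next 3068).

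For 10 named genes the change over 28 days in air differed between the schedules in the interaction test, as log2 differences of the repeated minus the single schedule. None of the 10 passed without animals 17, 19, 20, 82, 84 and 86, a fit with fewer animals and less power. The difference was above 0 for Eln (1.37), Fbln5 (1.03), Hist1h1d (0.985), Pola2 (0.78) and P4hb (0.3). It was below 0 for Tmem229a (-1.73), Hepacam2 (-1.22), Il1a (-0.968), Tnfaip3 (-0.655) and Ipmk (-0.489).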

How the results depend on the processing

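Without animals 17, 19 and 20 the air comparison gave 125 genes, with a minimum of 1.5-fold 6, and on leaving out 1 animal at a time 315 to 516. The other 7 alternatives gave 345 to 579 against 481. For the oil vapor difference (0 genes), no filter gave 11, DESeq2 21, other-tissue covariates 2, and leaving out 1 single-schedule air animal 0 to 10. For the schedule difference (27 genes), no filter gave 17, DESeq2 114, limma-voom 80 and covariates 138. Leaving out animals 17, 19, 20, 82, 84 and 86 (chosen after seeing the data) gave 0. Leaving out 1 single-schedule air animal gave 11 to 47. No oil vapor animal and no animal of the repeated schedule was left out 1 at a time. The causes were not tested. Over 105 named genes called, 2202 alternative values gave 1807 on the same side of the threshold, 395 on the other and 0 with another sign. Calls lost numbered 61 without animals 17, 19 and 20, a fit with fewer animals and less power. They numbered 99 with a minimum of 1.5-fold, 22 with covariates, 16 in each of the fits of 12 and of 48 libraries, 9 with no filter, 7 with limma-voom, 1 with other size factors and 0 with DESeq2. The calls lost with 48 libraries were Ccl5, Ces1d, Gja4, Hba1, Igf2r, Il12rb2, Lamc3, Mylk, Ntrk3, Pdgfrb, Pigr, Pmp22, Pzp, Ret, Serpina1 and Tbx2. With 12 libraries they were C5, C6, Ccl5, Dhcr7, Dnajb4, Dusp1, Efnb2, Irs2, Jun, Mylk, Nr4a3, Pdgfrb, Pmp22, Postn, Ptprb and Pzp. Their adjusted p-values reached 0.234 (Igf2r, 48 libraries) and 0.145 (C6, 12 libraries). Leaving out 1 animal lost 3 to 20. The list counts were recomputed under these settings after the data were seen. No paired analysis was possible because the groups compared share no animal numbers and no label pairs the animals. With 3.60 to 6.13 M counts per library, 3 counts are 0.489 to 0.833 CPM, so that differences in genes near that level can be missed.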
